A study of Mus musculus with 12 samples.

Results

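The comparison described here set livers of ovariectomized female mice against livers of intact female mice, with the difference averaged over a vehicle and a dexamethasone treatment. All 12 libraries of the study entered it, 6 from ovariectomized and 6 from intact animals, chosen by the gonadal status named in the table's column headings. Every animal was a wild-type C57BL/6 female, and the labels gave no age and no interval since surgery. The 4 groups of 3 libraries were intact with PBS (the vehicle), intact with dexamethasone, ovariectomized with PBS and ovariectomized with dexamethasone. Dexamethasone, a synthetic glucocorticoid, was given at 1 mg/kg, and livers were taken 6 h after either treatment. The labels did not say whether the 3 libraries of a group came from separate animals, and each p-value therefore speaks of the spread among these libraries only, part of which may be technical.

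The ovaries supply oestradiol and progesterone, and ovariectomy removes that supply. Hepatocytes carry oestrogen receptor alpha, and many liver genes differ between the sexes through the pattern in which the pituitary releases growth hormone, which gonadal steroids shape. Major urinary proteins, several steroid-metabolizing enzymes and some glutathione S-transferases are among the liver genes long known to depend on sex and growth hormone.

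The deposited values were log2 normalized read counts, so a difference of 1 between groups is a 2-fold difference. They are not corrected for transcript length, and levels are therefore compared only within a gene. A gene was called when its difference passed a Benjamini-Hochberg adjusted p of 0.05 in a limma fit with gonadal status and treatment as additive terms. The medians of the 12 libraries lay between 8.82 and 8.86, and over genes the root mean square difference between replicates ranged from 0.172 to 0.32. The first principal component, with 49.9% of the variance, separated the treatments. All 12 hepatocyte markers examined were measured, and none of them was called. Their summed log2 level lay at 22.51 to 22.62 in intact and 22.34 to 22.47 in ovariectomized vehicle livers. Under dexamethasone it lay at 22.30 to 22.39 against 22.42 to 22.63. The groups were thus separated under each treatment, in opposite directions.

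Ovariectomy shifted 754 of 12965 genes tested on average over the treatments, most of them by little. Of these, 373 genes were higher in ovariectomized livers (2.88% of genes tested) and 381 were lower (2.94%), and 3091 genes had an unadjusted p under 0.05. The median absolute difference of called genes was 0.31 on the log2 scale. Only 8 of the called genes were at least 2-fold higher and 9 at least 2-fold lower. The count rested on several libraries: it was 223 without ovariectomized vehicle replicate 2, 261 without ovariectomized dexamethasone replicate 3, 292 without intact vehicle replicate 1 and 295 without intact vehicle replicate 3. It was 387 without ovariectomized vehicle replicate 3, 478 to 482 without intact dexamethasone replicate 1, ovariectomized vehicle replicate 1 or ovariectomized dexamethasone replicate 1, and 608 to 704 without any of the other 4 libraries.

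The stable part of the effect was read as the called genes whose 3 ovariectomized libraries all lay on the same side of the 3 intact libraries under vehicle and again under dexamethasone. There were 521 such genes, 69.1% of those called, with 263 higher (2.03% of genes tested) and 258 lower (1.99%). Their median differences were 0.26 and -0.35 on the log2 scale. Called or not, 777 genes were separated in the same direction under both treatments, and 1300 were separated under both treatments in opposite directions.

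Over all genes, the effects of ovariectomy under the treatments were little alike. Fitted on the 6 vehicle libraries alone, ovariectomy changed 3390 genes (26.1% of genes tested). On the 6 dexamethasone libraries alone it changed 601 genes (4.64%). The fits share no library, and 235 genes were called in both. Of those, 68 moved in the same direction, 34 up and 34 down, which is 2.01% of the vehicle calls and 11.3% of the dexamethasone calls. The other 167 moved in opposite directions, 152 of them lower with vehicle and higher with dexamethasone. Over all genes tested, the vehicle and dexamethasone effects had a Pearson correlation of 0.04 and a Spearman correlation of -0.10, given as a description, since genes are not independent replicates. The effect differed between treatments for 3234 genes by limma's interaction test (24.9% of genes tested), and 82 of the 754 genes called on average were among them. No gene called on average had opposite signs under the treatments, but this was close to fixed in advance. The additive fit averages the effects and leaves their difference in the residual, so opposite effects give a small difference with a large SE. The same selection keeps interaction genes few among those called.

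**Figure D1:**
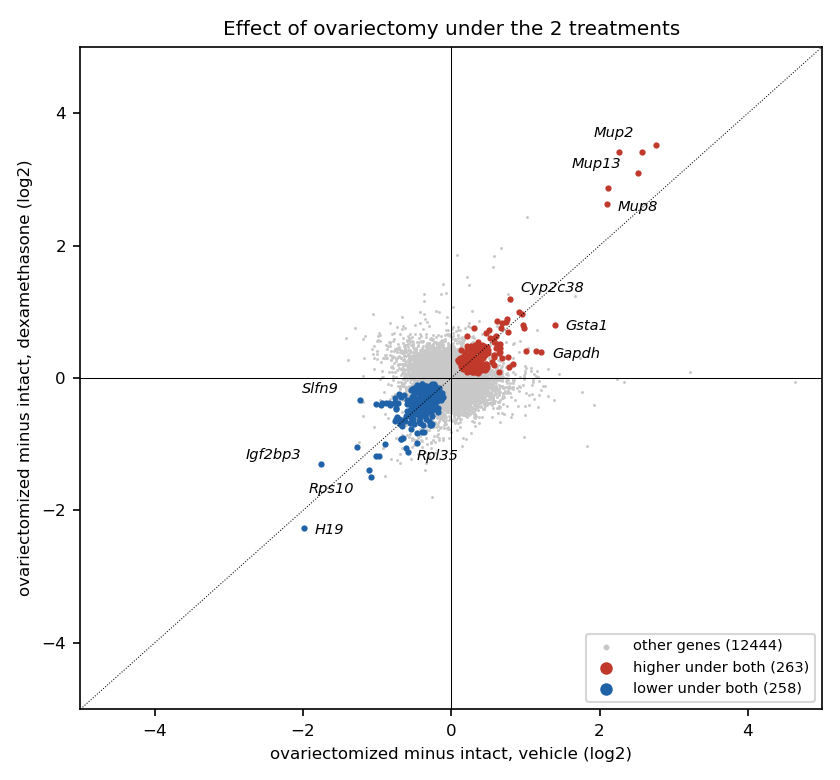
Log2 difference between ovariectomized and intact livers under vehicle (x axis) and under dexamethasone (y axis) for 12965 genes; each point is a gene and the dotted line marks equal effects. The 263 genes higher under both treatments (red) and the 258 lower under both (blue) have the same sign on both axes by the rule that chose them. Mup2 lies at 2.76 and 3.52 and H19 at -1.99 and -2.26. The other genes (grey) include those separated under both treatments in opposite directions.

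The largest rises belonged to the major urinary proteins, small lipocalins that the liver secretes and the kidney passes into urine, where they bind and release pheromones. Of 17 family members measured, 8 were higher in ovariectomized livers, beside 2.88% of all genes tested, and none was lower. All 17 differences were positive, with a median of 1.12 against 0.0025 over all genes tested. In the 3 intact vehicle libraries Mup2 read 7.27, 7.05 and 6.93, and in the 3 ovariectomized vehicle libraries 9.92, 10.53 and 9.09. In the intact dexamethasone libraries it read 7.27, 7.54 and 6.83, and in the ovariectomized dexamethasone libraries 9.98, 10.90 and 11.33. Every ovariectomized library lay at least 1.55 log2 units above every intact one. The averaged difference of Mup2 was 3.14 (SE 0.27, adjusted p 6.23e-05), an 8.82-fold rise.

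Mup13 rose by 3.00 (SE 0.29), Mup19 by 2.84 (SE 0.35), Mup15 by 2.81 (SE 0.30), Mup12 by 2.49 (SE 0.33) and Mup8 by 2.36 (SE 0.33), with adjusted p between 0.000187 and 0.00261. These 5 genes and Mup2, none with overlap under either treatment, were the 6 largest rises among the genes shifted under both treatments. Within the ovariectomized vehicle group replicate 2 was the highest and replicate 3 the lowest for all 6. Mup1 rose by 1.73 (SE 0.39, adjusted p 0.0276) with overlapping libraries under vehicle, and Mup20, which encodes the male pheromone darcin, by 0.48 (SE 0.11, adjusted p 0.033). Mup20 libraries overlapped under dexamethasone, and its call was lost in 6 of the 12 fits that left out 1 library. Mup3 and Mup21, 2 further members, had differences of 0.38 (adjusted p 0.292) and 1.45 (adjusted p 0.0811). Mup1, Mup3 and Mup21 fall outside the naming rule and were chosen after their values were seen.

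The family's members are near-copies of each other, and 15 of the 17 share at least 20% of their 50-base transcript words with another gene; the share was 78.2% for Mup2 and 100% for Mup19 and Mup15. Which member a read came from is therefore uncertain. The 6 members shifted under both treatments and Mup20 (50.5%) all exceed the 20% limit. Leaving such genes out of the fit thus removed them and did not test them again, and no call remained in the list. Mup2 also had several entries in the deposited table, and its difference fell from 3.14 to 1.37 when they were averaged in place of the highest entry.

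Promoters of 3 members are shown because they let the reader see how close the copies are outside the transcript. Each covers 250 bases before to 50 after the start of transcription (RefSeq, GRCm38.p6, minus strand of chromosome 4), and capitals mark bases that a global alignment did not match to Mup2.
Mup2, chr4:60139807-60140106: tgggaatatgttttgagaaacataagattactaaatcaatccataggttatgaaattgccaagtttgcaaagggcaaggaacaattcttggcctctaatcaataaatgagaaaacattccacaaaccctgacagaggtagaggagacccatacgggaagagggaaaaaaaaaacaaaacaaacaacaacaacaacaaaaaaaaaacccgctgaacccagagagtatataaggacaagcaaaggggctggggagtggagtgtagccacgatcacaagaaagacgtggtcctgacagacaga
Mup19, chr4:61782175-61782474: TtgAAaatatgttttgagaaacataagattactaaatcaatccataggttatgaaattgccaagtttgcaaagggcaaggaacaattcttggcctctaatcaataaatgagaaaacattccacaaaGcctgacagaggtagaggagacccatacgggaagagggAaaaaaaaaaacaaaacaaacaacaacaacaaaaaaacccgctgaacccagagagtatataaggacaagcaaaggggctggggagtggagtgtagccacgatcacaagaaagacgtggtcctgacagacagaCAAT
Mup3, chr4:62087268-62087567: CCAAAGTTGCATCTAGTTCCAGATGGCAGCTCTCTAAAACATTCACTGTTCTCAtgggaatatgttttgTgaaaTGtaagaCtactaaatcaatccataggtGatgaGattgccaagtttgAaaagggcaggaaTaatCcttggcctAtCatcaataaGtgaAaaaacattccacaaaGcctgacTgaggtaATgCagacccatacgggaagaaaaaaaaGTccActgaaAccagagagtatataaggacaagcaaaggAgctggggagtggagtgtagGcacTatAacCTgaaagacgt
The Mup19 promoter matched that of Mup2 at 97% of its bases and the Mup3 promoter at 72.7%. Likeness to Mup2 did not order the differences. The Mup17 promoter matched at 97.7%, and its gene had a difference of 1.12 that was not called (adjusted p 0.159). The Mup21 promoter matched at 69.7%, and its gene had a difference of 1.45, not called either (adjusted p 0.0811). No member's promoter held the STAT motif TTCNNNGAA or the palindromic oestrogen response element GGTCANNNTGACC in this window, among the 14 Mup promoters that the table holds.

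Enzymes that conjugate glutathione to reactive compounds formed the next group of rises. Among 43 conjugation enzymes measured, 9 were higher, beside 2.88% of all genes tested, and none was lower. The median difference was 0.06, and all 9 called genes were glutathione S-transferases. Gsta4, the family member that removes the lipid peroxidation product hydroxynonenal, read 10.69, 10.95 and 10.77 in intact vehicle livers against 11.23, 11.35 and 11.57 after ovariectomy. Under dexamethasone it read 10.24, 10.56 and 10.28 against 10.94, 10.80 and 10.98. The groups did not overlap under either treatment, and the averaged rise was 0.56 (SE 0.08, adjusted p 0.00222), or 1.48-fold. Gsta1 rose by 1.10 (SE 0.20, adjusted p 0.0106), Gsta2 by 0.87 (SE 0.17, adjusted p 0.0143) and Gstm1 by 0.53 (SE 0.11, adjusted p 0.0189). Gsta1 shares 90.5% and Gsta2 49.8% of transcript words with other genes, whereas Gsta4 shares none. The list's count was 5 under quantile normalization, 5 without ovariectomized vehicle replicate 2 and 6 without genes that have copies.

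Cyp2c38, a cytochrome P450 that oxidizes fatty acids such as arachidonic acid, rose 2.00-fold, by 1.00 on the log2 scale (SE 0.17, adjusted p 0.00862). It read 9.73, 9.88 and 9.70 in intact and 10.44, 11.15 and 10.12 in ovariectomized vehicle livers. Under dexamethasone it read 9.57, 10.03 and 9.16 against 10.72, 10.81 and 10.83. The ovariectomized libraries were higher throughout. Cyp2c38 was the only one called higher of 40 drug-metabolizing P450 enzymes and their receptors, beside 2.88% of all genes tested. The only one called lower was Cyp3a59, with a difference of -0.39 (SE 0.10, adjusted p 0.0446), and it lost that call under quantile normalization, with no filter and in 10 of the 12 fits that left out 1 library. Plekhb1, a membrane protein with a pleckstrin homology domain, rose by 0.75 (SE 0.11, adjusted p 0.0029).

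Genes of fat storage rose in small number. Fitm1, an endoplasmic reticulum protein that partitions triglyceride into lipid droplets, read 8.60, 9.29 and 8.95 in intact vehicle and 9.77, 9.83 and 10.12 in ovariectomized vehicle livers. Under dexamethasone it read 9.10, 8.84 and 8.65 against 9.60, 9.34 and 10.04, again with no overlap. The averaged rise was 0.88 (SE 0.14, adjusted p 0.00603). Of 31 lipid droplet proteins, lipases and uptake genes, 4 were higher, beside 2.88% of all genes tested. None was lower, and the median was 0.15. Pnpla2, the lipase that begins triglyceride breakdown, rose by 0.32 (SE 0.06, adjusted p 0.0121), without overlap. The other 2 called members, the droplet coat protein Plin4 (0.99, SE 0.26, adjusted p 0.0468) and the lipase inhibitor Hilpda (0.46, SE 0.12, adjusted p 0.0445), overlapped under at least 1 treatment. The count fell to 2 when any of 8 libraries was left out.

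Single members of other metabolic lists also passed the test, where 2.88% of all genes tested were called higher. Among 30 genes of fatty acid and triglyceride synthesis, 2 were higher: Elovl5, which elongates polyunsaturated fatty acids (0.53, SE 0.09, adjusted p 0.00814), and Me1, the malic enzyme that supplies NADPH (0.47, SE 0.10, adjusted p 0.0244). Cyp8b1, the sterol hydroxylase that sets the share of cholic acid, was the only called gene of 26 in bile acid synthesis and transport. It read 12.18, 11.51 and 11.97 in intact vehicle and 12.69, 12.40 and 12.55 in ovariectomized vehicle livers. The dexamethasone libraries read 13.01, 13.09 and 13.03 against 13.24, 13.80 and 13.46. Its groups did not overlap, and it rose by 0.56 (SE 0.12, adjusted p 0.0193).

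Of 27 genes of gluconeogenesis and insulin signalling, 2 were higher, beside 2.88% of all genes tested. These were Irs2, an adaptor of the insulin receptor (0.70, SE 0.14, adjusted p 0.0153), and Gys2, the liver glycogen synthase (0.33, SE 0.07, adjusted p 0.0208). Irs2 libraries touched under vehicle, where intact replicate 2 and ovariectomized replicate 2 both read 8.75, and Gys2 libraries were separated under both treatments. Of 25 genes of iron, haem and metal handling, 3 were higher, beside the same 2.88%. These were Hamp, the iron hormone hepcidin (0.72, SE 0.16, adjusted p 0.0269), Slc39a4, a zinc importer (0.37, SE 0.08, adjusted p 0.0256), and Ftl1, the ferritin light chain (0.27, SE 0.07, adjusted p 0.0418). All 3 lost the call without ovariectomized vehicle replicate 2, and Ftl1 shares 50.9% of its transcript words with other genes. Over the 12 fits that left out 1 library, Ftl1 lost the call in 8, Hamp in 6 and Slc39a4 in 2. Hamp libraries overlapped under dexamethasone, and Ftl1 was not called under quantile normalization (limma adjusted p 0.243). Hamp was also the only called gene of 30 acute phase proteins. By the interaction test, 13 of the 30 had a higher effect under dexamethasone and 1 a lower effect, beside 24.9% of all genes tested in either direction.

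**Figure D2:**
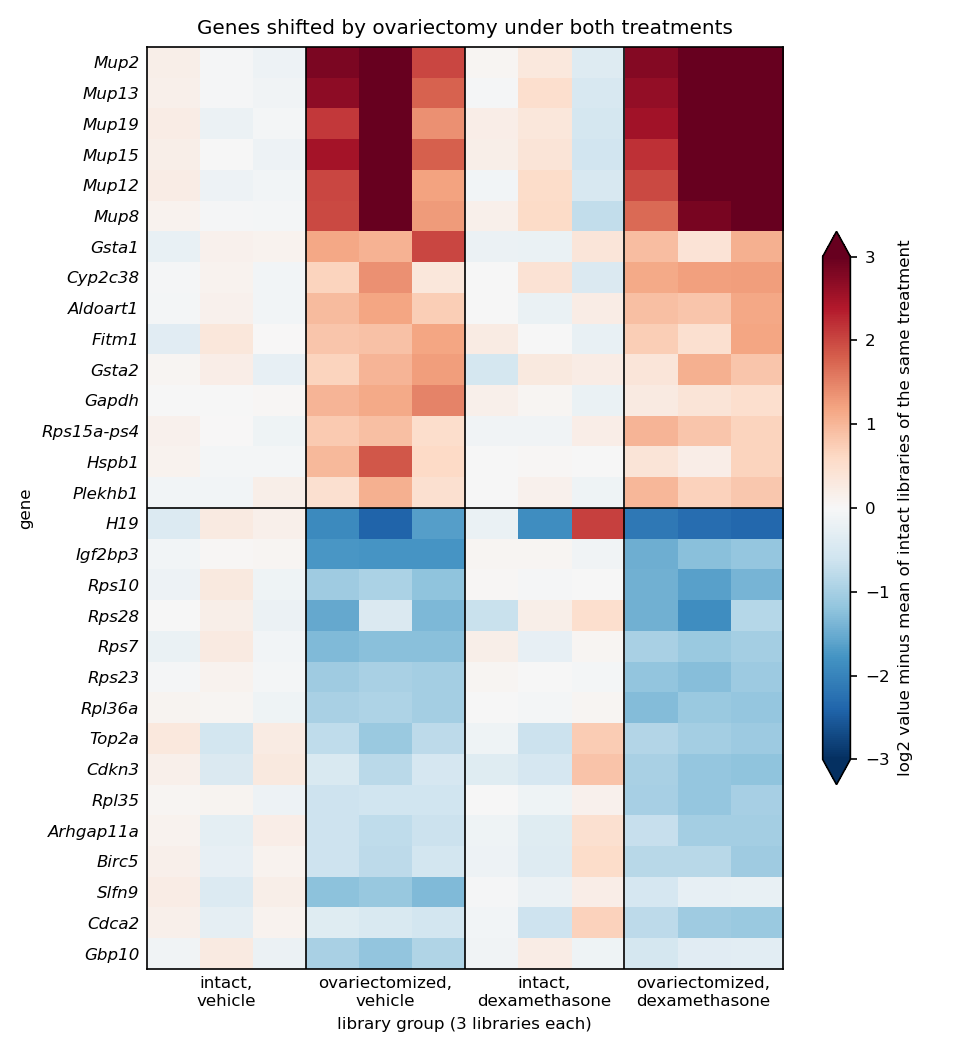
Log2 value of each library minus the mean of the 3 intact libraries of the same treatment (colour), for the 15 largest rises (top) and the 15 largest falls (bottom) among genes shifted under both treatments. Columns are the 12 libraries in their 4 groups. The 6 major urinary proteins exceed the other rises, and the third intact dexamethasone library stands above its group for H19, Top2a, Cdkn3 and Cdca2.

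The largest fall was that of H19, an imprinted long noncoding RNA that is abundant in fetal liver and repressed after birth. H19 read 7.90, 8.59 and 8.48 in intact vehicle livers and 6.41, 5.93 and 6.68 after ovariectomy. Under dexamethasone the intact libraries were spread, at 7.78, 6.12 and 10.05, and the ovariectomized libraries read 5.84, 5.70 and 5.63. All ovariectomized libraries lay below the intact libraries of their treatment, under dexamethasone by as little as 0.29. H19 fell by 2.12 (SE 0.47, adjusted p 0.0256), a 4.36-fold fall. The call was lost without intact vehicle replicate 3, ovariectomized vehicle replicate 2 or ovariectomized dexamethasone replicate 3, with adjusted p up to 0.0683.

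Igf2bp3, an RNA-binding protein that is likewise high in fetal tissue and binds Igf2 and other messenger RNAs, had the next largest fall. It read 7.84, 7.96 and 7.98 in intact vehicle livers and 6.18, 6.16 and 6.16 after ovariectomy. In dexamethasone-treated livers it read 7.23, 7.22 and 7.06 against 5.72, 5.91 and 6.01. The gap between the groups was 1.66 log2 units under vehicle and 1.05 under dexamethasone, and Igf2bp3 fell by 1.52 on average (SE 0.09, adjusted p 2.73e-06), or 2.88-fold. It held in all 26 alternatives tried, with adjusted p of at most 5.53e-05. The effect was larger under vehicle (-1.76) than under dexamethasone (-1.29), and this difference of 0.47 passed limma's interaction test (adjusted p 0.0189).

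Most other genes examined that are high in fetal liver or imprinted were not called. Afp had a difference of -0.15 (adjusted p 0.313), Igf2 of -0.07 (adjusted p 0.757), Gpc3 of -0.27 (adjusted p 0.449) and the paralogue Igf2bp2 of 0.06 (adjusted p 0.812). Mest, an imprinted hydrolase, fell by 0.39 (SE 0.10, adjusted p 0.039) with overlapping libraries, and Meg3, an imprinted noncoding RNA, had a difference of -0.33 (adjusted p 0.0549). These 6 genes were chosen after their values were seen.

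The promoter of Igf2bp3 is shown because its gene had the largest fall among called genes after H19 (RefSeq, GRCm38.p6, minus strand), with both copies of the E-box CACGTG in capitals.
Igf2bp3, chr6:49214905-49215204: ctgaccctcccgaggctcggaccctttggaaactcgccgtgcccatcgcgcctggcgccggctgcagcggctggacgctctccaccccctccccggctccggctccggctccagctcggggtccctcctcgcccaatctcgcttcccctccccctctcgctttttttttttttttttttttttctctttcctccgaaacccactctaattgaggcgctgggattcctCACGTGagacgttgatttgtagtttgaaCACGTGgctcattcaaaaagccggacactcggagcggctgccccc
The E-box was found in 11.7% of the 10328 tested genes with a promoter in the table, in 7.11% of the 211 genes lower under both treatments that have one, and in 12.1% of the 207 genes higher under both. Over all 27025 genes of the table the share was 8.09%.

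More ribosomal protein genes fell than rose, and the largest falls exceeded the largest rises, with the list's averaged median near 0. That median was 0.04 under vehicle and -0.24 under dexamethasone. Of 51 cytosolic ribosomal protein genes listed, 13 were lower and 2 were higher, beside 2.94% and 2.88% of all genes tested. The median of the list was -0.08. Without ovariectomized vehicle replicate 2 the count lower was 7, and with length and GC trends removed it was 19. Rps10, a protein of the small subunit, read 8.25, 8.70 and 8.27 in intact vehicle and 7.34, 7.45 and 7.19 in ovariectomized vehicle livers. With dexamethasone its values were 9.01, 8.93 and 8.96 against 7.53, 7.33 and 7.57. The groups were separated by 0.80 log2 units under vehicle and 1.37 under dexamethasone, and Rps10 fell by 1.28 (SE 0.10, adjusted p 3.24e-05), or 2.44-fold. The small-subunit genes Rps28 (-1.25, SE 0.23), Rps7 (-1.16, SE 0.09) and Rps23 (-1.10, SE 0.06) fell too, as did the large-subunit genes Rpl36a (-1.08, SE 0.07) and Rpl35 (-0.83, SE 0.09), with adjusted p between 2.73e-06 and 0.0136. In the opposite direction, Rps19 rose by 0.57 (SE 0.09, adjusted p 0.00603) and Rpl34 by 0.34 (SE 0.09, adjusted p 0.0419), 2 genes named after their values were seen.

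Ribosomal protein genes have many processed copies in the mouse genome, and 29 of the 51 share at least 20% of their transcript words with another gene. Without such genes, 5 of the list remained lower. The share was 27.7% for Rps7, 35.3% for Rps23, 22.5% for Rpl36a, 30.2% for Rpl35, 18.7% for Rps10 and 9.2% for Rps28. Rps15a-ps4, a ribosomal pseudogene with 35.5% shared words, rose by 0.79 (SE 0.09, adjusted p 0.000645), and Aldoart1, a retrogene of the aldolase Aldoa, by 0.96 (SE 0.10, adjusted p 0.000358). Of 85 pseudogenes tested, 9 were higher and 2 lower, beside 2.88% and 2.94% of all genes tested. Genes with at least 20% shared words made up 5.47% of genes tested, 13.2% of genes called higher, 6.82% of genes called lower and 26.4% of called genes with a fold of at least 1.5, and the part of read assignment in these results was not tested.

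Some genes of cell division fell after ovariectomy. Of 29 cell cycle genes measured, 6 were lower, beside 2.94% of all genes tested, and none was higher. Among the 29, 25 differences were negative and 4 positive, and the median was -0.54. Birc5, the survivin of the mitotic spindle, read 7.04, 6.65 and 6.99 in intact vehicle and 6.27, 6.10 and 6.35 in ovariectomized vehicle livers. The dexamethasone libraries read 7.26, 7.03 and 7.96 against 6.59, 6.58 and 6.35. No libraries overlapped, and Birc5 fell by 0.78 (SE 0.14, adjusted p 0.0114), or 1.72-fold. Top2a, the topoisomerase that untangles replicated DNA, fell by 0.94 (SE 0.21, adjusted p 0.0252), and Mcm6, a subunit of the replicative helicase, by 0.65 (SE 0.12, adjusted p 0.0108). Mki67, which encodes the proliferation antigen Ki-67, fell by 0.98 (SE 0.23, adjusted p 0.0311), with overlapping libraries.

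Outside the list, the mitotic genes Cdkn3 (-0.85, SE 0.22, adjusted p 0.0407), Arhgap11a (-0.80, SE 0.14, adjusted p 0.00917) and Cdca2 (-0.72, SE 0.19, adjusted p 0.0445) were among the 15 largest falls. Their highest value was in intact dexamethasone replicate 3, as for Top2a, Birc5, Mki67 and H19. Leaving out 1 library at a time, Cdkn3 and Cdca2 each lost the call in 9 of 12 fits, Mki67 in 8 and Top2a in 4. Arhgap11a and Birc5 kept it in every such fit. The number of cell cycle genes called lower ranged from 2 without intact vehicle replicate 1 to 15 without intact vehicle replicate 2, and was 16 with an interaction term in the fit. In whole liver, fewer cells of a type and less RNA per cell cannot be told apart, which holds for every marker given here.

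**Figure D3:**
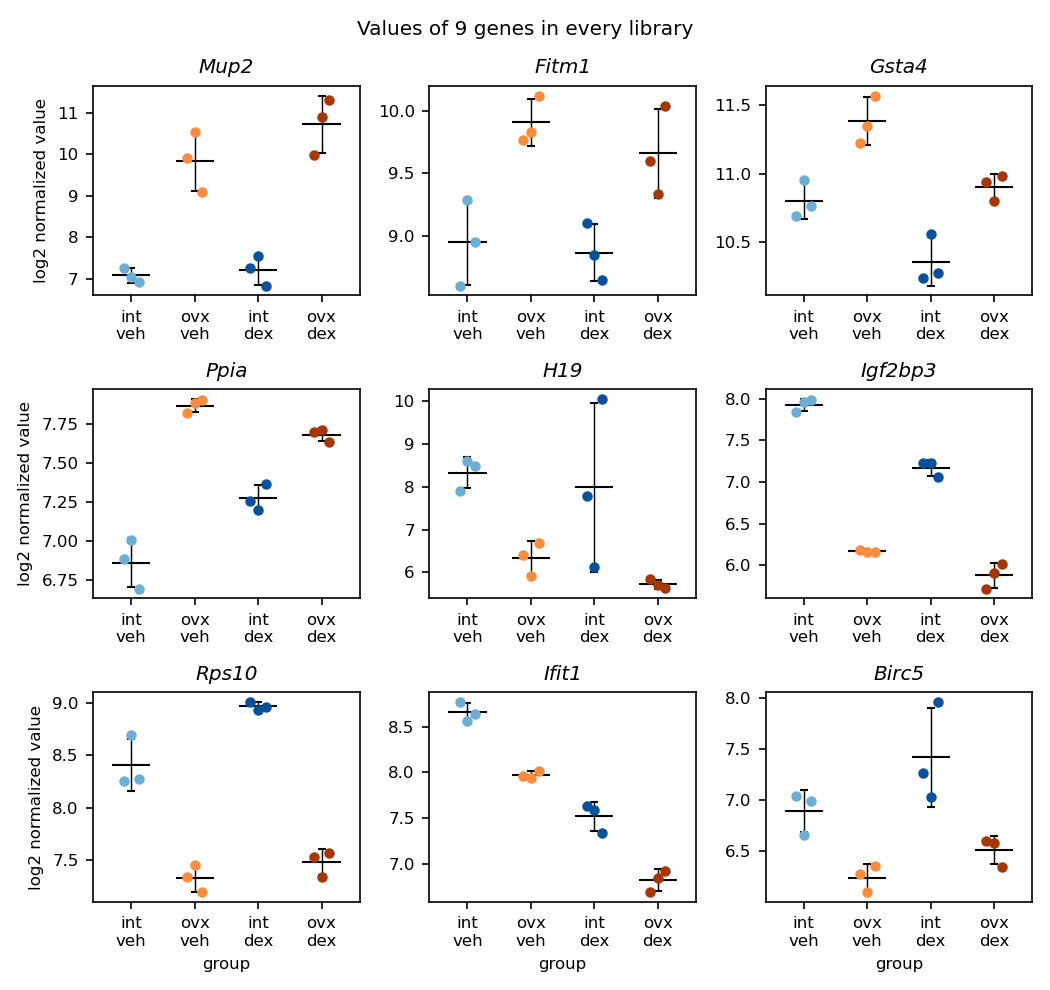
Log2 normalized value of 9 genes in every library (points), with the mean of the 3 libraries (long bar) and 1 SD (error bar), for intact (int) and ovariectomized (ovx) livers under vehicle (veh) and dexamethasone (dex). In all 9 panels the ovariectomized points lie entirely on 1 side of the intact points of the same treatment, and for H19 the intact dexamethasone points spread from 6.12 to 10.05.

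Of the 41 gene lists, that of interferon-stimulated genes had the most members called lower. Of 38 measured, 19 were lower, beside 2.94% of all genes tested, and none was higher. Of the 19, 14 had no overlap under either treatment, and such genes made up 1.99% of genes tested. The list's median was -0.34 against 0.0025 over all genes tested. The median was the same under vehicle (-0.34) and under dexamethasone (-0.34). Ifit1, an inhibitor of viral RNA translation, read 8.77, 8.56 and 8.63 in intact vehicle and 7.96, 7.93 and 8.02 in ovariectomized vehicle livers. In dexamethasone-treated livers it read 7.63, 7.59 and 7.34 against 6.69, 6.85 and 6.92. Both treatments separated the groups fully, and Ifit1 fell by 0.69 (SE 0.07, adjusted p 0.000187), or 1.62-fold.

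Rsad2, the antiviral enzyme viperin, fell by 0.67 (SE 0.08, adjusted p 0.00116), with effects of -0.67 under each treatment. Ifi44 fell by 0.62 (SE 0.10, adjusted p 0.00765) and Gbp7, a guanylate-binding protein that attacks pathogen vacuoles, by 0.62 (SE 0.10, adjusted p 0.00556). Its relative Gbp10 fell by 0.71 (SE 0.13, adjusted p 0.0121), with 84.1% of its transcript words shared with other genes, and Slfn9, a member of the interferon-inducible Schlafen family, by 0.78 (SE 0.17, adjusted p 0.0243). Irf7, which amplifies type I interferon and lies outside the naming rule, fell by 0.32. The count of interferon genes called lower was 11 without ovariectomized dexamethasone replicate 3 and 12 without ovariectomized vehicle replicate 2.

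Promoters of Ifit1 and Rsad2 are shown because they carry the interferon-stimulated response element, searched here as GAAANNGAAA on both strands, a motif added after the list's values were seen. Matches on either strand are in capitals (RefSeq, GRCm38.p6).
Ifit1, plus strand, chr19:34640639-34640938: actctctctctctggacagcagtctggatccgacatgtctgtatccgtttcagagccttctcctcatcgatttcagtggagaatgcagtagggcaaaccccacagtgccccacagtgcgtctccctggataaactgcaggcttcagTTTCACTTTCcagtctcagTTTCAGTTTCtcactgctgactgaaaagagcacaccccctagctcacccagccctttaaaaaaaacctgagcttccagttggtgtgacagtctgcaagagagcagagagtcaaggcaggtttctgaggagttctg
Rsad2, minus strand, chr12:26456403-26456702: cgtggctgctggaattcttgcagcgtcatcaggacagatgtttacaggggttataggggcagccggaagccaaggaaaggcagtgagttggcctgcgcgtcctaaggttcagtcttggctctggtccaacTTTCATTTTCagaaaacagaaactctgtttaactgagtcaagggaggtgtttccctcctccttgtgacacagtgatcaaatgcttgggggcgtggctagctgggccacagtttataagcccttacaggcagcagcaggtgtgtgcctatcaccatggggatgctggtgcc
Among the interferon genes called lower, 16 had a promoter in the table, and 11 of these (68.8%) held a match. No share was taken for listed interferon genes that were not called, so the 68.8% cannot be tied to the fall. A match was present in 32 of 211 genes lower under both treatments (15.2%), in 8 of 207 genes higher under both (3.87%), in 3.81% of the 10328 tested genes with a promoter and in 3.99% of all promoters. Of the 199 genes lower under both treatments that are not on the interferon list, 23 held it (11.6%). The 5 of these with the largest falls were Igf2bp3 (-1.52), where the match lies in a run rich in T, the ribosomal protein genes Rps7 (-1.16) and Rps23 (-1.10), Slfn9 (-0.78) and Gm12250 (-0.65). The 23 also held the cell division genes Bub1b (-0.65) and Smc2 (-0.57), the antiviral RNA helicase Ddx60 (-0.55) and Gbp5 (-0.36), a guanylate-binding protein like Gbp7. Slfn9 and Gbp5 belong to families named with the interferon genes above. Genes off the list are thus not all outside the interferon response, and the 11.6% cannot be read as a share of other genes. The matches are of letters and are not measured binding sites.

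The AGGTCA motif, the core bound by oestrogen receptors and other nuclear receptors, was found in 15.5% of genes higher under both treatments, in 16.6% of genes lower under both and in 15.5% of tested genes. The STAT motif was found in 7.25%, 9.95% and 8.41% of these. The full palindromic oestrogen response element occurred in 0 of the 418 shifted genes with a promoter and in 1 of the 10328 tested genes.

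Markers of Kupffer cells, the resident macrophages of liver, were lower. All 17 markers had negative differences, with a median of -0.32. Of these, 8 were called lower, beside 2.94% of all genes tested. Of the 8, 6 had no overlap under either treatment, and such genes made up 1.99% of genes tested. Emr1, an adhesion receptor of macrophages, read 9.11, 8.91 and 8.89 in intact vehicle and 8.35, 7.93 and 7.98 in ovariectomized vehicle livers. With dexamethasone its values were 8.05, 8.16 and 8.11 against 7.95, 7.65 and 7.61. Its groups were separate, by only 0.10 under dexamethasone, and Emr1 fell by 0.63 on average (SE 0.11, adjusted p 0.0099). Clec4f, a lectin specific to Kupffer cells that lies outside the naming rule, fell by 0.29 (SE 0.06, adjusted p 0.0167), without overlap. Marco, a scavenger receptor, fell by 0.73 (SE 0.17, adjusted p 0.0301), Cd5l by 0.47 (SE 0.07, adjusted p 0.00471) and the pore-forming protein Mpeg1 by 0.47 (SE 0.07, adjusted p 0.0065).

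The summed level of the Kupffer markers lay at 14.32 to 14.40 (log2) in intact and 13.87 to 14.12 in ovariectomized vehicle livers, and at 14.09 to 14.20 against 13.64 to 13.99 under dexamethasone. No marker of the list was at 0 in every library. The interferon genes described above fell in the same libraries, and the part of macrophage content in that fall was not tested. Without ovariectomized vehicle replicate 2, 5 of the markers were called.

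Among markers of other cell types none was called among the markers of neutrophils (3 measured), T and NK cells (11), B cells (7), sinusoidal endothelium (16), cholangiocytes (9), erythroid cells (3), pancreas (2) or gallbladder and intestinal epithelium (4). Of 16 stellate cell and fibroblast markers, 2 fibrillar collagen genes were lower, beside 2.94% of all genes tested. These were Col3a1, lower by 0.81 (SE 0.21, adjusted p 0.0429), and Col1a2, by 0.59 (SE 0.16, adjusted p 0.0494). Neither was separated under vehicle, and none of the 16 was called under quantile normalization. Of 5 adipocyte markers, 2 were higher, beside 2.88% of all genes tested. These were Pparg, the master regulator of adipocyte formation (0.54, SE 0.13, adjusted p 0.0312), and the carbonic anhydrase Car3 (0.33, SE 0.09, adjusted p 0.0434). Both are also expressed by hepatocytes, and the median over the 5 was 0.33. Markers of pericentral and periportal hepatocytes (16 measured for each) gave no call.

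**Figure D4:**
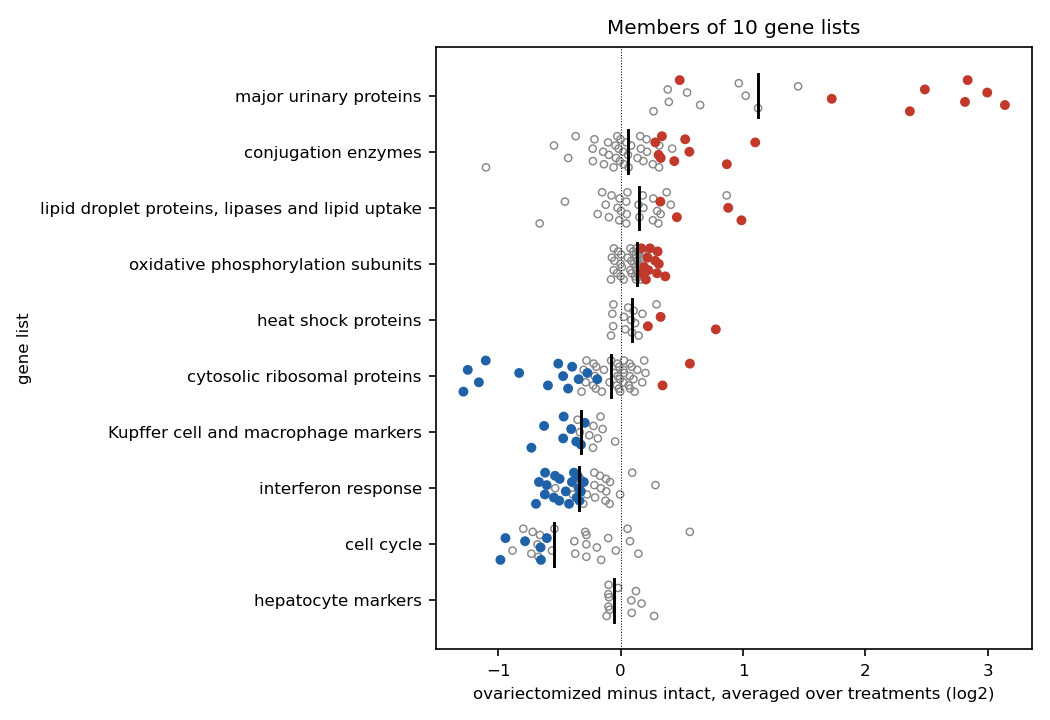
Averaged log2 difference between ovariectomized and intact livers for the measured members of 10 gene lists; each point is a gene, filled points are called higher (red) or lower (blue), open points are not called, and the bar is the list's median. The major urinary proteins lie entirely above 0 and the Kupffer markers entirely below it, and the median of the cell cycle list is -0.54.

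A minority of oxidative phosphorylation subunits rose slightly. Of 53 measured, 12 were higher, beside 2.88% of all genes tested, and none was lower. Among the 53, 44 differences were positive and 9 negative, with a median of 0.14 and the largest difference at 0.36. The median stayed positive under both other scalings (0.13 and 0.08). Cox6a1, a subunit of cytochrome oxidase, rose by 0.31 (SE 0.05, adjusted p 0.00519), Ndufa7 of complex I by 0.30 (SE 0.06, adjusted p 0.0176) and Cox6b1 by 0.30 (SE 0.06, adjusted p 0.0141). Ndufa3 of complex I rose by 0.36 (SE 0.09, adjusted p 0.0385), with 0.64 under vehicle and 0.09 under dexamethasone. By the interaction test, the difference was lower under dexamethasone than under vehicle for 25 of the 53 and higher for 5. Of all genes tested, 24.9% passed that test in either direction. None of the 53 was called higher under quantile normalization, and 5 were without intact vehicle replicate 3 or ovariectomized vehicle replicate 2.

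Short transcripts tended to be higher and long ones lower. The median transcript length was 1992 bases for genes called higher, 3756 for genes called lower and 3341 for genes tested. Over genes, the averaged difference had a Spearman correlation of -0.27 with transcript length and 0.28 with GC content, as a description. The vehicle effect followed length with -0.37 and the dexamethasone effect with 0.08. When each library's trend on length and GC content was removed, 677 genes were called, 514 of them also called without that step, and 6 oxidative phosphorylation genes were called higher. The part of transcript length in the averaged effect was not tested otherwise.

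Of the 521 genes shifted under both treatments, 42 had effects whose difference passed the interaction test. Gapdh, the glycolytic enzyme often taken as a reference gene, read 8.69, 8.69 and 8.73 in intact vehicle and 9.72, 9.85 and 10.19 in ovariectomized vehicle livers. With dexamethasone its values were 9.73, 9.62 and 9.37 against 9.85, 9.95 and 10.09. The groups were separated by 0.99 log2 units under vehicle and by 0.12 under dexamethasone. Gapdh rose by 0.80 on average (SE 0.14, adjusted p 0.0103), and its effects of 1.22 and 0.39 differed by the interaction test (adjusted p 0.00526). It shares 24.7% of its words with other genes.

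Ppia, the cyclophilin that is also used as a reference gene, rose by 0.71 (SE 0.10, adjusted p 0.00385), with effects of 1.01 and 0.41 (interaction adjusted p 0.00458). Slfn9 fell by 1.23 under vehicle and had a difference of -0.32 under dexamethasone (interaction adjusted p 0.0151). Rpl35 went the other way, with -0.61 under vehicle and -1.05 under dexamethasone (interaction adjusted p 0.0243). Hspb1, a small heat shock protein, rose by 0.78 (SE 0.20, adjusted p 0.0385), and its co-chaperone partner Bag3 by 0.33 (SE 0.07, adjusted p 0.0256). These 2 and the heat shock factor Hsf1 (0.22, SE 0.06, adjusted p 0.0381) were the called members of 17 heat shock genes. Over all genes tested, 2.88% were called higher. No heat shock gene was called without intact vehicle replicate 1.

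Genes of the sex-hormone and growth-hormone pathways gave few calls apart from the major urinary proteins. Over all genes tested, 2.88% were called higher and 2.94% lower. Of 35 female-biased liver genes, Ntrk2, a neurotrophin receptor, was higher (0.75, SE 0.19, adjusted p 0.0429) and Abcd2, a peroxisomal fatty acid transporter, lower (-0.30, SE 0.07, adjusted p 0.0357). Libraries of both genes overlapped under dexamethasone. Leaving out 1 library at a time, Ntrk2 lost its call in 10 of 12 fits and Abcd2 in 8. Abcd2 was also the only called gene of 37 in fatty acid oxidation. By the interaction test, 15 of the 37 had a higher effect under dexamethasone, beside 24.9% of all genes tested in either direction. Of 33 male-biased genes, 3 were higher, Mup12, Mup20 and Gstp1, and 2 were lower, Selenbp2 (-1.19, SE 0.27, adjusted p 0.028) and the complement component C8a (-0.37, SE 0.09, adjusted p 0.0367). Selenbp2, a selenium-binding protein, went against the direction of the urinary proteins, with 43.9% of its words shared with other genes. The medians of these lists were -0.02 and -0.10. Among 36 genes of complement and coagulation, C8a and coagulation factor F11 (-0.45, SE 0.10, adjusted p 0.0284) were lower, 2 of 36 beside 2.94% of all genes tested. The count was 0 without ovariectomized vehicle replicate 2 or 3, 8 under quantile normalization and 11 with an interaction term in the fit. C8a lost its call in 9 of the 12 fits that left out 1 library. Of the 36 genes, 15 had a higher effect under dexamethasone by the interaction test, beside 24.9% of all genes tested in either direction.

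Of 24 genes of oestrogen signalling and metabolism only Hsd17b6, which oxidizes hydroxyl groups of steroids, was called (0.45, SE 0.11, adjusted p 0.0312), and not under quantile normalization. Esr1, oestrogen receptor alpha, read 9.43, 9.49 and 9.57 in intact vehicle and 8.09, 8.03 and 8.21 in ovariectomized vehicle livers. The dexamethasone libraries read 8.91, 8.01 and 8.93 against 9.33, 7.88 and 9.47. The groups were separate only under vehicle, the averaged difference was -0.56 (SE 0.33, adjusted p 0.332), and the effects of -1.39 and 0.27 differed by the interaction test (adjusted p 0.0301). Sult1e1, the oestrogen sulphotransferase, had an averaged difference of -0.02 (SE 0.15, adjusted p 0.963), and the corepressor Lcor lay under the level filter, at 3.03 to 3.51.

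Of 22 genes of the growth hormone and IGF axis, only Jak2, the kinase that the growth hormone receptor activates, was called. It fell by 0.27 (SE 0.06, adjusted p 0.0175), without overlap, and the call was lost without ovariectomized vehicle replicate 2. Ghr, the receptor itself, had a difference of -0.04 (SE 0.08, adjusted p 0.795). Nr3c1, the glucocorticoid receptor, had a difference of -0.16 (SE 0.09, adjusted p 0.271), with -0.43 under vehicle and 0.11 under dexamethasone. No gene was called among 30 glucocorticoid receptor targets, 24 immediate early genes and 24 cholesterol synthesis genes. Nor was any called among 24 endoplasmic reticulum stress genes and 9 genes of MHC class II. For the immediate early genes the average stood over unlike effects, with medians of 0.82 under vehicle and -0.20 under dexamethasone. The interaction test called 15 of these 24 lower under dexamethasone, beside 24.9% of all genes tested in either direction. Of 20 clock genes the repressor Nfil3 was higher (0.57, SE 0.12, adjusted p 0.0216), and of 41 genes of amino acid catabolism Cdo1 (0.28, SE 0.07, adjusted p 0.0354) and Cbs (0.26, SE 0.06, adjusted p 0.0384), which act in cysteine metabolism, were higher. These 2 of 41 stand beside 2.88% of all genes tested, and neither was called under quantile normalization or with no filter. Leaving out 1 library at a time, Cdo1 lost its call in 8 of 12 fits and Cbs in 9.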

How the data were processed

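RNA of 12 female mouse livers was extracted with Trizol and a column kit and sequenced from Illumina TruSeq libraries, per the labels' protocols. The submitters' processing notes name Trim Galore, TopHat2, HTSeq, DESeq and DESeq2 and the build mm9, without versions, roles or settings. The authors deposited 1 table of log2 normalized values per gene, from -2.22 to 22.03, and how values under 0 arose is not given in the sources used here. Library depth and the handling of reads that fit several genes are not given either. Of 24962 entries, 6294 were at 0 in every library. For each of 24033 symbols the entry highest on average was used, and 12965 with a mean of at least 4 were tested, 19 of them under symbols that a spreadsheet had turned into dates.

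limma 3.58.1 (R 4.3.3) was fitted with gonadal status and treatment as additive terms, all 12 libraries sharing one estimate of the spread (9 residual degrees of freedom), with the prior variance following mean level, and Benjamini-Hochberg adjustment over all genes tested. The same test was run on the vehicle and on the dexamethasone libraries alone and on the interaction. SE is the moderated standard error. Copies were measured as the share of a gene's 50-base words found in transcripts of another gene (GENCODE vM21, 99.5% of genes matched). Promoters came from the RefSeq table (GRCm38.p6), matched by Entrez identifier; coordinates of the authors' build were not used here. On simulated data with 50 genes changed at each size, the additive fit recovered 52%, 66%, 98% and 100% of log2 changes of 0.3, 0.5, 1 and 2, with 10 false calls among 12965 genes.

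Genes named were the 15 largest rises and falls among genes shifted under both treatments (passing over 3 clone or locus symbols), up to 4 called members of each of 41 gene lists by size, 5 receptors, cofactors and enzymes of hormone action, and 5 called genes with unlike effects under the treatments. The members and lists were chosen with earlier results of these data known. Alternatives changed the filter, pseudocount, scaling, variance model, weights, fold minimum, model, pairing, entries per symbol and libraries; leaving out genes with copies and removing length and GC trends were chosen after seeing the data.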

Additional observations from a re-analysis of the deposited data

Results flagged for a closer look

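For 12 of the genes named above, the effect of ovariectomy differed between the treatments by limma's interaction test, so their average stands over effects of unlike size; the values below are the dexamethasone effect minus the vehicle effect on the log2 scale. Among genes higher after ovariectomy, the effect was smaller under dexamethasone for Gapdh (-0.83, adjusted p 0.00526), Gstm1 (-0.62, adjusted p 0.00414), Ppia (-0.60, adjusted p 0.00458), Ndufa3 (-0.56, adjusted p 0.00203) and Cox6b1 (-0.28, adjusted p 0.0185), and larger for Pparg (0.59, adjusted p 0.0456). Among genes lower after ovariectomy, the fall was smaller under dexamethasone for Slfn9 (0.91, adjusted p 0.0151), Gbp10 (0.63, adjusted p 0.0331), Emr1 (0.51, adjusted p 0.0462), Igf2bp3 (0.47, adjusted p 0.0189) and Abcd2 (0.39, adjusted p 0.0117), and larger for Rpl35 (-0.44, adjusted p 0.0243). In all 12 the sign was the same under both treatments, as for every gene called on average, which the additive fit favours.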

How the results depend on the processing

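An interaction term in the fit gave 1030 genes higher and 1007 lower, since it removes that variation from the residual. Quantile normalization gave 242 higher, 173 of them shifted under both treatments. A minimum log2 difference of 1 left 8 higher and 9 lower (7 and 7 under both), 45 and 25 for vehicle alone, 12 and 10 for dexamethasone alone, and 112 and 53 for the interaction. The replicate numbers did not pair the samples: deviations of same-numbered libraries correlated at -0.231 to 0.396, over 0.1 in 6 of 18 pairs, and 5 of 12 libraries correlated best with their own number. With the replicate block, 215 genes were higher (170 under both), and dexamethasone alone gave 54 higher and 22 lower. Dexamethasone alone also gave 86 and 45 with no filter, 247 higher after recentring, 122 and 110 after quantile normalization and 174 higher without the variance trend. Library weights gave 2541 and 3082 for vehicle alone, 2771 and 2086 for dexamethasone alone, and 3651 and 3008 for the interaction. The cause of these moves was not tested. Leaving out each library gave 105 to 398 genes higher and 118 to 348 lower, 100 to 356 and 113 to 313 of them under both treatments, 650 to 1753 and 891 to 2155 for vehicle alone, 0 to 478 and 0 to 282 for dexamethasone alone, and 741 to 1404 genes with a lower effect under dexamethasone.

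Of 76 named genes that were called, 41 kept the call whichever library was left out. Of 2052 values of named genes under alternatives, 1692 kept direction and side of the threshold, 352 lost the call, 1 gained it and 7 changed sign: Sult1e1 (between -0.162 and 0.0662 with a library left out, above 0 without any of 6 of them) and Ghr (0.0385 with length and GC trends removed), none of them called. Library depth is unknown, so no counting error can be given, and 3 libraries a group limit what can be called.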
